A study of Mus musculus with 18 samples.

Results

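Neutrophils are short-lived white blood cells that carry antimicrobial proteins in granules, sense bacterial peptides and chemokines through surface receptors, and move from blood into inflamed tissue. Their granule proteins are made in a set order while the cells mature in bone marrow: azurophil granule enzymes in promyelocytes, specific and gelatinase granule proteins later, and chemokine and growth factor receptors in mature cells. The lung vasculature holds a pool of mature neutrophils, so transcripts of these cells are present in RNA of whole lung.

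A list of 36 neutrophil genes was followed in the lung transcriptomes of 3 mouse lines, chosen by gene symbol and grouped here by role. The deposited table held 35 of them among 23356 features. No level of the surface antigen Ly6g is given here, and it enters only the counts of promoter patterns. The list comprised 2 alarmins, 8 specific or gelatinase granule proteins, 4 azurophil granule enzymes, 7 receptors, 8 surface proteins, 5 products of mature cells and 2 regulators.

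RNA of whole frozen lung was sequenced after poly(A) selection from 18 libraries in 6 groups of 3, numbered replicate 0 to 2. The groups were β-arrestin 1 -/- mice in hypoxia and in normoxia, mice labelled β-arrestin 2 -/- in hypoxia and in normoxia, and wild type mice in hypoxia and in normoxia. β-Arrestins are adaptors that bind activated G protein-coupled receptors, a class that includes the chemokine and formyl peptide receptors of neutrophils. All animals were male C57BL/6 mice of 8 to 12 weeks at entry, labelled 12 to 16 weeks of age at collection, and all groups were kept for 4 weeks in their condition. Hypoxia was the pressure of an altitude of 18000 feet with a labelled PAO2 of about 70 mmHg, and normoxia was normal altitude with a labelled PAO2 of about 150 mmHg. The labels give no detail of how either arrestin allele was made. Nothing in them ties a library to a single animal, and p-values therefore cover variation among libraries, part of which may be technical.

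Between 16806806 and 25980876 estimated fragments were assigned to genes per library. Arrb1, which encodes β-arrestin 1, was lower in the β-arrestin 1 -/- line than in wild type by a log2 change of -2.07 ± 0.12 (SE) in hypoxia and -2.18 ± 0.12 in normoxia. Arrb2, which encodes β-arrestin 2, was not called lower in the libraries labelled β-arrestin 2 -/-, where its log2 change against wild type was -0.18 ± 0.20 in hypoxia and 0.33 ± 0.20 in normoxia, with adjusted p of 0.821 and 0.256 in edgeR's quasi-likelihood test. The libraries of that line are therefore named by their label. One library stood apart: β-arrestin 1 -/- hypoxia replicate 2 had the lowest total, and its short genes were raised against its long genes by a log2 of 1.03 relative to the other libraries, where the same measure ran from -0.42 to 0.62. It also held the highest CPM (a gene's fragments scaled to the library total as adjusted by edgeR's TMM factor) of 9 of the 26 neutrophil genes that could be tested. Results of the tests run here that rest on it are given with and without it, whereas the authors' deposited comparisons were not refitted.

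Levels differed between the 35 genes over a wide range (plot of FPKM by gene). On the FPKM scale, which divides by gene length, the acute phase and granule protein haptoglobin, Hp, was highest, with a mean of 1070 FPKM over the 18 libraries. The alarmin gene S100a8 followed with a mean of 128 FPKM, G0s2, an inhibitor of triglyceride lipase, with 123 FPKM, S100a9 with 121 FPKM and the iron-siderophore binder Lcn2 with 103 FPKM. Haptoglobin and lipocalin are known also from epithelial cells, and G0s2 from fat cells. Pglyrp1, Retnlg, Ltf and Sorl1 had means of 14.9 to 23.0 FPKM, and Fpr2, Fpr1, Ltb4r1, Clec4d, Csf3r, Stfa2l1, Cd177, Cxcr2 and Il1r2 had means of 1.14 to 3.52 FPKM. The other 17 genes had mean levels of at most 0.855 FPKM.

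**Figure D1:**
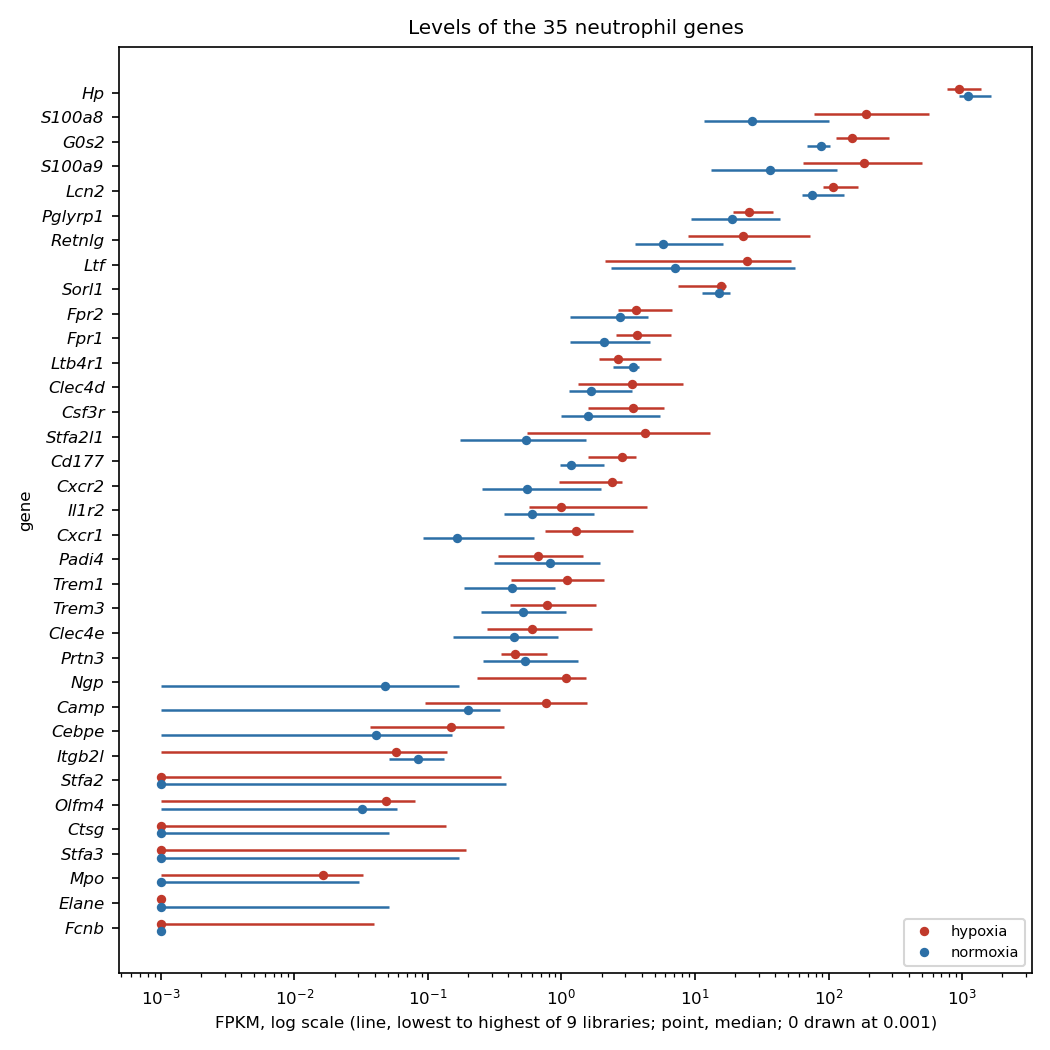
FPKM (log axis) of each of the 35 neutrophil genes over the 9 hypoxia and the 9 normoxia libraries; points are medians and lines run from the lowest to the highest library. Hp lies highest, at a mean of 1070 FPKM over all 18 libraries, S100a8 and S100a9 lie higher in hypoxia, and the azurophil granule genes Mpo, Elane and Ctsg lie at or near 0.

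Of the 4 azurophil granule genes, which are made in immature cells, 3 were at or near 0. Mpo, the myeloperoxidase of azurophil granules, had 12 fragments in all 18 libraries together: 1, 1 and 1 in β-arrestin 1 -/- hypoxia and 0, 0 and 0 in β-arrestin 1 -/- normoxia libraries, 1, 0 and 1 in hypoxia and 0, 1 and 2 in normoxia libraries labelled β-arrestin 2 -/-, and 2, 0 and 0 in wild type hypoxia and 0, 1 and 1 in wild type normoxia libraries. Elane, neutrophil elastase, and Fcnb, a ficolin of immature cells, had 1 fragment each in all libraries together. Ctsg, cathepsin G, had 8 fragments. Genes of other roles were low as well: the granule glycoprotein Olfm4 25, the stefins Stfa2 and Stfa3 had 6 and 2, the granulocyte transcription factor Cebpe had 51 and the integrin Itgb2l had 87. These 9 genes were too low for the test, which left 26 of the 35 among 15388 genes tested. Prtn3, proteinase 3, the fourth azurophil gene, had fragments in all 18 libraries and passed with 200 in all, at a mean of 0.574 FPKM, and its log2 change with hypoxia averaged over the 3 lines was -0.11 ± 0.23 (adjusted p = 0.776). Beyond the list, Ms4a3, a marker of marrow granulocyte progenitors, was at 0 in every library of 5 of the 6 groups. It is 1 of 8 bone marrow progenitor markers. The 8 summed to 675 to 944 CPM over the 18 libraries, so the list as a whole was not near 0. Which cells these transcripts came from was not tested. Of the 7 tested, 1 was called higher on average in hypoxia (Cd34, 0.61 ± 0.07) and 1 lower (Flt3, -0.49 ± 0.13). The shares of all genes were 10.4% higher and 8.94% lower.

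Neutrophil genes were higher after 4 weeks of hypoxia, which is the comparison that the study's exposure poses for each line. Averaged over the 3 lines, 16 of the 26 tested genes were called higher in hypoxia than in normoxia (adjusted p below 0.05 over all genes tested) and 0 were called lower, against a background of 10.4% of all genes called higher and 8.94% called lower. The median log2 change was 0.93 over the 26 genes and 0.0 over all genes tested. The number called stayed between 14 and 17 when any one library was left out, and was 17 without the library that stood apart. In whole lung, more neutrophils, more transcript per neutrophil and transcript from other cells cannot be told apart.

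**Figure D2:**
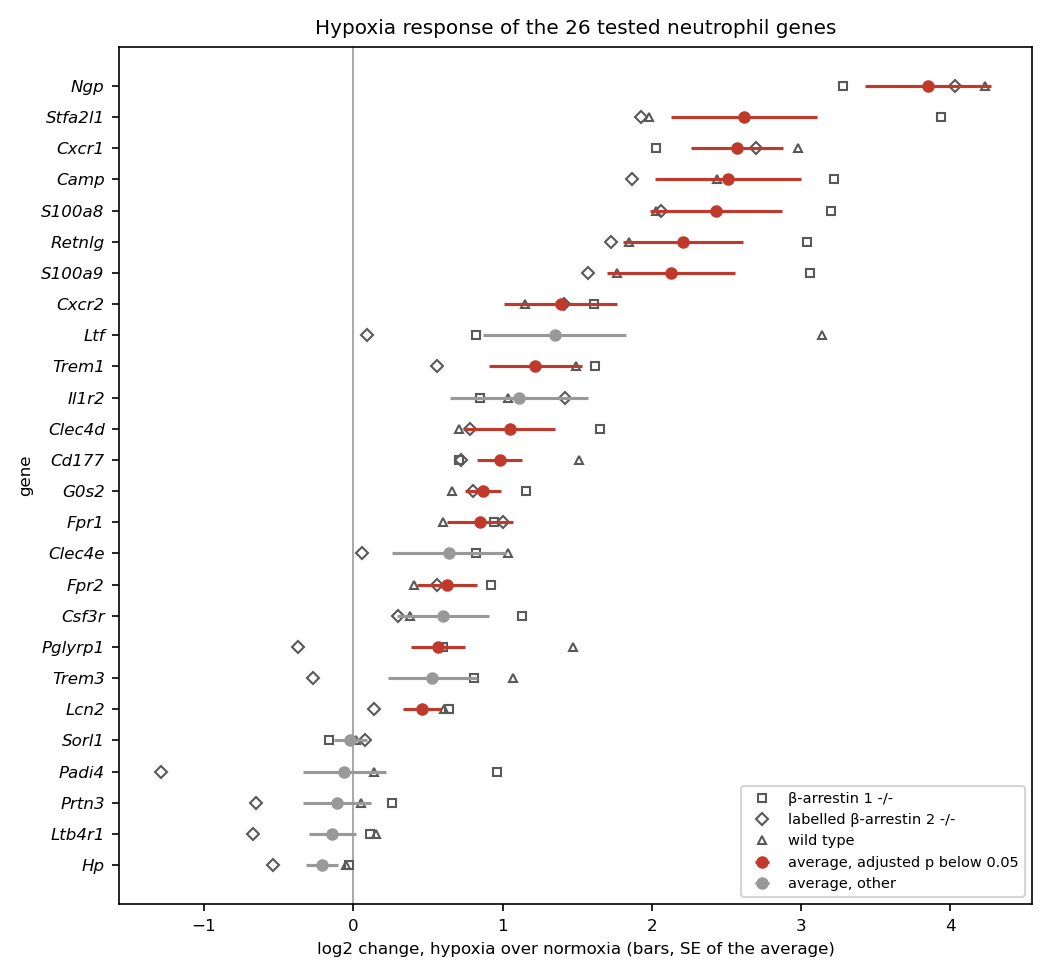
Log2 change of hypoxia over normoxia for the 26 tested neutrophil genes, as the average of 3 lines (filled points, bars of 1 SE, red where the adjusted p was below 0.05) and in each line (open symbols). Ngp stands highest at 3.85, and 21 of 26 averages lie above 0.

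The alarmins S100a8 and S100a9 form calprotectin, an abundant cytosolic complex of neutrophils that binds calcium and zinc and signals to other cells when released. S100a8 lies at chr3:90669071-90670034 and S100a9 22.6 kb away on chromosome 3, in mm10 coordinates of the deposited table. S100a8 in the β-arrestin 1 -/- line had 50.4, 40.0 and 121 CPM in hypoxia, against 5.05, 13.9 and 3.94 CPM in normoxia. S100a8 in the libraries labelled β-arrestin 2 -/- had 16.4, 47.3 and 28.9 CPM in hypoxia, against 5.72, 7.80 and 8.63 CPM in normoxia. S100a8 had 23.4, 17.3 and 75.0 CPM in wild type hypoxia libraries, against 4.22, 2.49 and 21.6 CPM in wild type normoxia libraries. Hypoxia libraries were higher without overlap in both knockout-labelled lines, while in wild type 1 normoxia library, replicate 2, lay between the hypoxia libraries. On average the log2 change was 2.43 ± 0.44, a fold of 5.39 (adjusted p = 0.0013), and the change in each line was 3.2 ± 0.78 in β-arrestin 1 -/- (adjusted p = 0.0371), 2.06 ± 0.76 in libraries labelled β-arrestin 2 -/- (adjusted p = 0.0621) and 2.03 ± 0.75 in wild type (adjusted p = 0.141). Without β-arrestin 1 -/- hypoxia replicate 2 the change in that line was 2.57 ± 0.78 (adjusted p = 0.11).

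S100a9 in the β-arrestin 1 -/- line had 72.4, 63.2 and 164 CPM in hypoxia, against 8.21, 20.5 and 7.13 CPM in normoxia. S100a9 in the libraries labelled β-arrestin 2 -/- had 20.5, 58.8 and 33.2 CPM in hypoxia, against 11.9, 12.8 and 13.3 CPM in normoxia. S100a9 had 30.5, 23.7 and 113 CPM in wild type hypoxia libraries, against 7.66, 4.26 and 37.1 CPM in wild type normoxia libraries. The order of the libraries was close to that of S100a8, with the highest value in the same library. Its average log2 change was 2.13 ± 0.43, a fold of 4.39 (adjusted p = 0.00265). By line the change was called in β-arrestin 1 -/- only (3.06 ± 0.77, adjusted p = 0.0418), and there it was 2.51 ± 0.78 (adjusted p = 0.119) without hypoxia replicate 2. The test of the difference between the responses of the lines is given with the comparisons of lines.

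**Figure D3:**
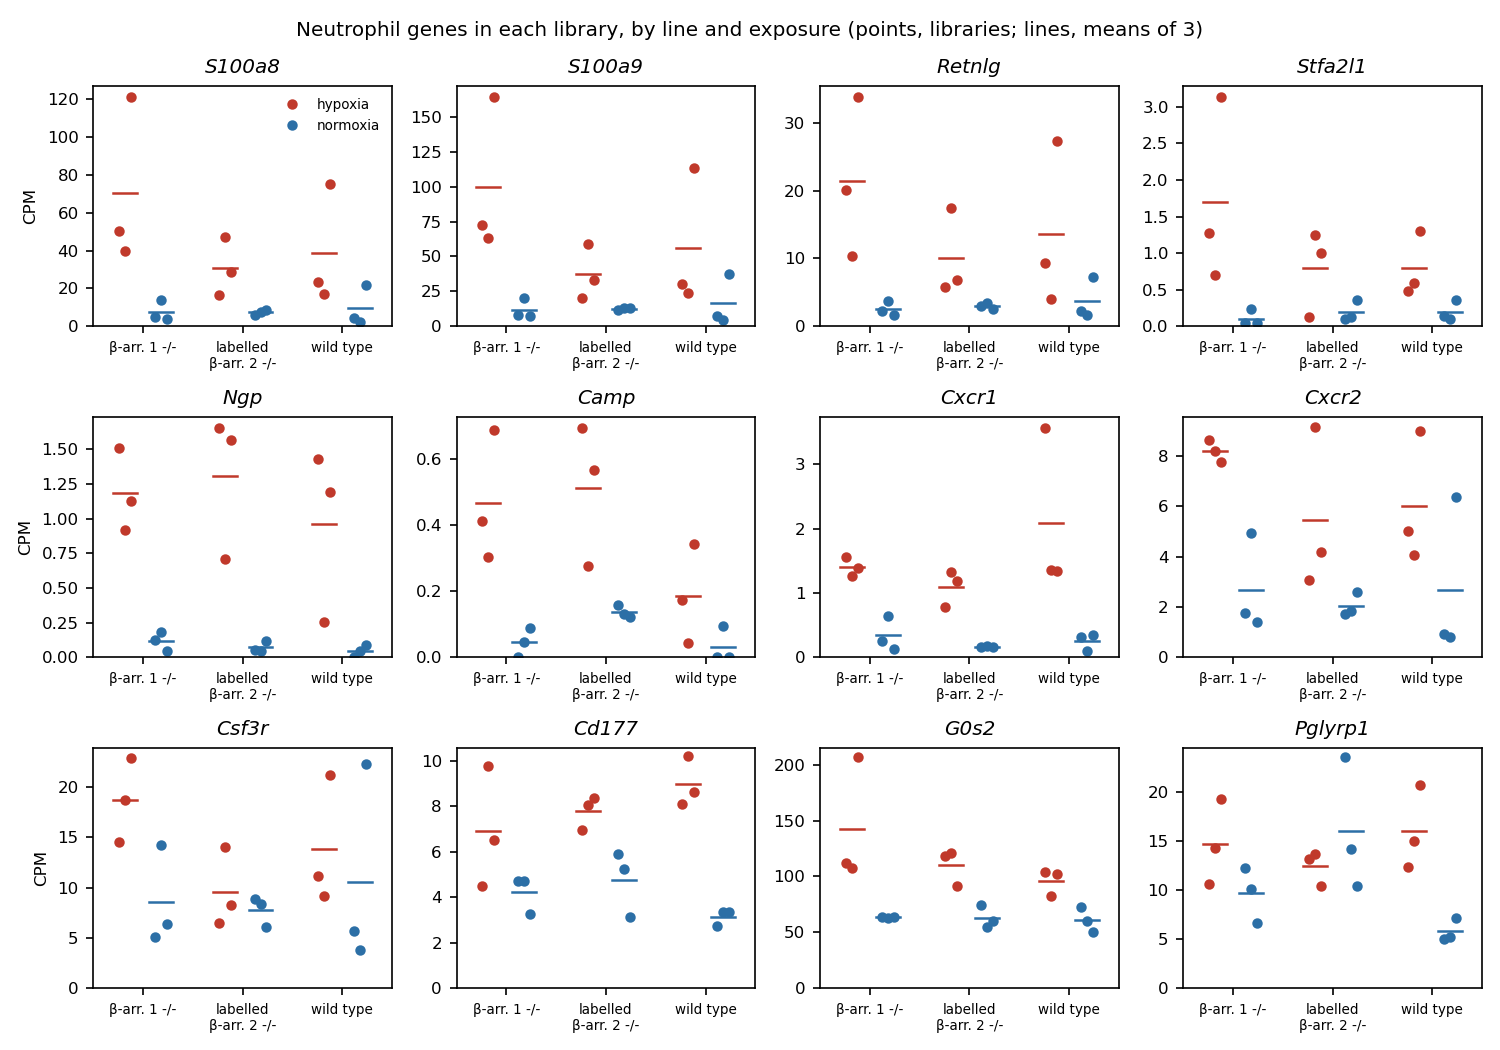
CPM (a gene's fragments scaled to the TMM-adjusted library total) of 12 neutrophil genes in each library, in hypoxia and in normoxia of each line. Points are libraries and lines are means of 3. Hypoxia points lie above normoxia points in every line for Ngp, Cxcr1 and G0s2. Wild type normoxia replicate 2 lies between the wild type hypoxia libraries for Cxcr2 and above them for Csf3r.

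The ratio of the alarmin transcripts was itself higher in hypoxia. S100a8 FPKM divided by S100a9 FPKM was 1.05, 0.956 and 1.11 in β-arrestin 1 -/- hypoxia libraries, against 0.929, 1.02 and 0.836 in β-arrestin 1 -/- normoxia libraries. The libraries labelled β-arrestin 2 -/- had ratios of 1.21, 1.21 and 1.31 in hypoxia, against 0.725, 0.922 and 0.979 in normoxia. Wild type libraries had ratios of 1.16, 1.10 and 0.998 in hypoxia, against 0.832, 0.882 and 0.878 in normoxia. The groups did not overlap in wild type or in the libraries labelled β-arrestin 2 -/-, and overlapped in β-arrestin 1 -/-. Averaged over lines the ratio was 1.26-fold higher in hypoxia, with p = 0.0005 in a two-sided exact permutation test of exposure within lines over 8000 arrangements, where the smallest possible p is 0.00025. This ratio was tested after it had been noticed in the same libraries. Both genes are very short, with 0.117% of 11947 well-covered genes shorter than S100a8 and 0.527% shorter than S100a9. The part of the measure of short genes against long genes in their levels and in the ratio was not tested.

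**Figure D4:**
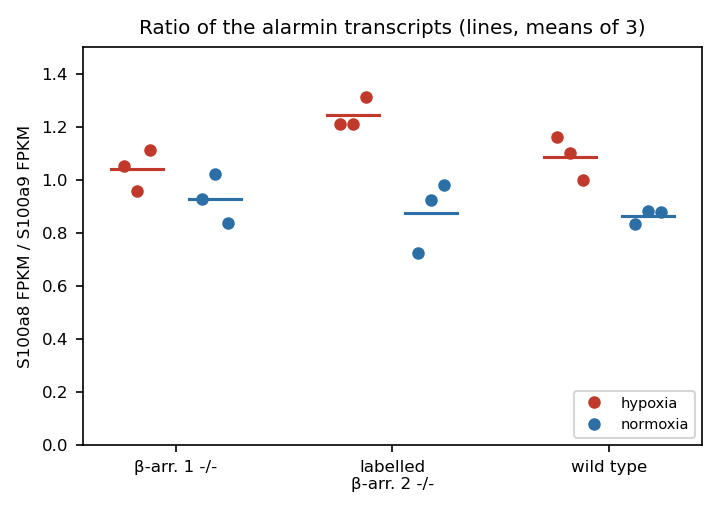
Ratio of S100a8 FPKM to S100a9 FPKM in each library, in hypoxia and in normoxia of each line; lines are means of 3. The 9 hypoxia libraries lie between 0.956 and 1.31 and the 9 normoxia libraries between 0.725 and 1.02.

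Specific granule genes ranged from an average log2 change of -0.21 for Hp to 3.85 for Ngp. Ngp, neutrophilic granule protein, and Camp, the cathelicidin precursor, are made at the stage before the cells leave the marrow and lie 570.4 kb apart on chromosome 9. Ngp in the β-arrestin 1 -/- line had 1.51, 0.916 and 1.13 CPM in hypoxia, against 0.123, 0.184 and 0.0448 CPM in normoxia. Ngp in the libraries labelled β-arrestin 2 -/- had 1.65, 0.706 and 1.57 CPM in hypoxia, against 0.0524, 0.0436 and 0.121 CPM in normoxia. Ngp had 1.43, 0.254 and 1.19 CPM in wild type hypoxia libraries, against 0, 0.0478 and 0.0884 CPM in wild type normoxia libraries. All 9 hypoxia libraries were above all 9 normoxia libraries, as for 1.09% of all genes tested. Ngp had 70 fragments in the 3 wild type hypoxia libraries and 3 in the 3 wild type normoxia libraries, a ratio of 20.9 after scaling by depth, with an exact 95% interval of 6.88 to 104 that covers counting error only. The fitted average log2 change was 3.85 ± 0.42 (adjusted p = 1.98e-05), and the gene was called in each line. The β-arrestin 1 -/- call (3.28, adjusted p = 0.0138) was lost in 3 of 14 alternatives, at adjusted p of up to 0.0743.

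Camp in the β-arrestin 1 -/- line had 0.412, 0.305 and 0.688 CPM in hypoxia, against 0, 0.0461 and 0.0896 CPM in normoxia. Camp in the libraries labelled β-arrestin 2 -/- had 0.693, 0.275 and 0.566 CPM in hypoxia, against 0.157, 0.131 and 0.121 CPM in normoxia. Camp had 0.174, 0.0423 and 0.344 CPM in wild type hypoxia libraries, against 0, 0.0956 and 0 CPM in wild type normoxia libraries. Camp was low throughout, at 91 fragments in all, and its hypoxia and normoxia libraries overlapped in wild type and not in the other lines. It had 14 fragments in wild type hypoxia libraries and 2 in wild type normoxia libraries, a ratio of 6.28 with a 95% interval of 1.44 to 57.0. The β-arrestin 1 -/- libraries held 27 fragments in hypoxia and 3 in normoxia, a ratio of 10.1 with an interval of 3.12 to 52.2. Its mean log2 change over the lines was 2.51 ± 0.49 (adjusted p = 0.00223), and in no single line was Camp called.

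The promoters of these 4 genes are shown because each gene was called higher on average and because C/EBP factors and the ETS factor PU.1 are known regulators of granulocyte genes. The 250 bases before each RefSeq start are given on GRCm38.p6, 5′ to 3′ on the strand of the gene, with S100a8 at chr3:90668821-90669070 (plus strand), S100a9 at chr3:90695722-90695971 (minus), Ngp at chr9:110419558-110419807 (plus) and Camp at chr9:109849457-109849706 (minus). Capitals mark matches on either strand to TTNNGNAA, a loose C/EBP pattern, and to GGAAGT, an ETS pattern.
S100a8: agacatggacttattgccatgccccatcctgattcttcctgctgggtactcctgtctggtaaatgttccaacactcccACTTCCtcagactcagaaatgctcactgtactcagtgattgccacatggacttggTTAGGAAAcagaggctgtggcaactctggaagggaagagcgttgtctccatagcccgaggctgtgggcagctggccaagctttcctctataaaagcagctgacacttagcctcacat
S100a9: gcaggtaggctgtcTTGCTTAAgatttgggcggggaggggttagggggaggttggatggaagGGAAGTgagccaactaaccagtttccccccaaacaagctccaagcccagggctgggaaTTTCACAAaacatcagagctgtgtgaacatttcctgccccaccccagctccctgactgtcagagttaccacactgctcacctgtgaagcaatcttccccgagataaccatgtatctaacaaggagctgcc
Ngp: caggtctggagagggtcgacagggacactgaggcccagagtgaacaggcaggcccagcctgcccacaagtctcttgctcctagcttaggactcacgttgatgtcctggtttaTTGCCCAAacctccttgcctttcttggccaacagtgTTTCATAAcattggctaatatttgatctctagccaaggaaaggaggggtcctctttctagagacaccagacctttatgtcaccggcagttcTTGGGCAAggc
Camp: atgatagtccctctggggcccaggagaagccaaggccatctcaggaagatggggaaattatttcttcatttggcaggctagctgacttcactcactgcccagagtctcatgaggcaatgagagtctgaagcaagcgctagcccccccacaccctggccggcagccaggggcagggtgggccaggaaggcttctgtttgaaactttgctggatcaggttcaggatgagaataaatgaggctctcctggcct
S100a8 held 1 match to each pattern, S100a9 held 2 to TTNNGNAA and 1 to GGAAGT, Ngp held 3 to TTNNGNAA and 0 to GGAAGT, and Camp held 0 to either. No marked matches overlapped. Promoters of 33 of the 36 listed genes matched by symbol in the RefSeq table, and 19 of them (57.6%) held TTNNGNAA in this window at 1 or more of their listed starts, against 36.8% of 32851 promoters. GGAAGT was held by 18 (54.5%), against 19.7% of all promoters. Of 4 other patterns searched on both strands, TTGCNNAA was held by 9 of the 33 (27.3%, against 9.56%), TTNCNCAA by 12 (36.4%, against 11.7%), TTGCGCAA by 0 (against 0.164%) and GAGGAAG by 13 (39.4%, against 10.6%). TTGCNNAA, TTNCNCAA and TTGCGCAA are narrower forms of TTNNGNAA or of its reverse complement, and GAGGAAG and GGAAGT can share bases. Listed genes were counted by gene, with a match at any of their starts, whereas the shares of all promoters count each start by itself. A listed gene with several starts had more chances of a match, so the shares are not like for like. These shares were not tested, and a match says only that the letters are present.

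Lcn2, lipocalin 2, withholds iron from bacteria by binding their siderophores. Lcn2 in the β-arrestin 1 -/- line had 76.2, 78.4 and 118 CPM in hypoxia, against 45.8, 65.5 and 63.3 CPM in normoxia. Lcn2 in the libraries labelled β-arrestin 2 -/- had 69.4, 70.4 and 66.6 CPM in hypoxia, against 54.7, 54.7 and 77.7 CPM in normoxia. Lcn2 had 96.5, 122 and 97.5 CPM in wild type hypoxia libraries, against 54.7, 55.6 and 96.4 CPM in wild type normoxia libraries. Hypoxia libraries lay above normoxia libraries in wild type, by a narrow margin over normoxia replicate 2, and in β-arrestin 1 -/-, and overlapped with them in the libraries labelled β-arrestin 2 -/-. Averaged over lines the log2 change was 0.46 ± 0.13, a fold of 1.38 (adjusted p = 0.0196), with no call in a single line.

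Pglyrp1, a peptidoglycan recognition protein, behaved differently in 1 line. Pglyrp1 in the β-arrestin 1 -/- line had 10.6, 14.3 and 19.2 CPM in hypoxia, against 12.2, 10.1 and 6.68 CPM in normoxia. Pglyrp1 in the libraries labelled β-arrestin 2 -/- had 13.1, 13.7 and 10.4 CPM in hypoxia, against 23.5, 14.2 and 10.4 CPM in normoxia. Pglyrp1 had 12.3, 15 and 20.7 CPM in wild type hypoxia libraries, against 5.0, 5.21 and 7.16 CPM in wild type normoxia libraries. In wild type the hypoxia libraries were all above the normoxia libraries, with a log2 change of 1.47 ± 0.31 (adjusted p = 0.0144). In the other lines the groups overlapped, with log2 changes of 0.60 ± 0.30 in β-arrestin 1 -/- (adjusted p = 0.313) and -0.37 ± 0.30 in libraries labelled β-arrestin 2 -/- (adjusted p = 0.391). The average over lines was 0.57 ± 0.18 (adjusted p = 0.0329). That call was lost in 9 of 25 alternatives, at adjusted p of up to 0.0661, and the wild type call in 3 of 14, at up to 0.076. The response of the libraries labelled β-arrestin 2 -/- differed from that of wild type by a log2 of -1.83 ± 0.43 (adjusted p = 0.0253), and the normoxia libraries of that label were above those of wild type by 1.46 ± 0.31 (adjusted p = 0.0131). Without replicate 0 of the normoxia libraries labelled β-arrestin 2 -/-, which had the highest value of all libraries, these 2 values were -1.44 ± 0.39 (adjusted p = 0.0609) and 1.07 ± 0.29 (adjusted p = 0.0728). The measure of short genes against long genes moved with these calls: it was -0.39, -0.02 and -0.12 in hypoxia libraries labelled β-arrestin 2 -/- and 0.62, 0.25 and 0.27 in their normoxia libraries, and -0.42, -0.09 and 0.14 in wild type hypoxia libraries and -0.15, -0.22 and -0.28 in wild type normoxia libraries. Pglyrp1 is a short gene, with 2.21% of 11947 well-covered genes shorter, and the part of this measure in its values was not tested. It is not alone in this: the share of shorter genes was 0.117% for S100a8, 0.527% for S100a9, 4.04% for G0s2 and 4.13% for Lcn2. The part of the measure in their values was not tested either.

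Ltf, lactoferrin, binds iron and is also secreted by airway epithelium. Ltf in the β-arrestin 1 -/- line had 6.09, 65.3 and 7.45 CPM in hypoxia, against 26.9, 11.1 and 6.77 CPM in normoxia. Ltf in the libraries labelled β-arrestin 2 -/- had 93.4, 63.5 and 77.7 CPM in hypoxia, against 162, 38.6 and 20.5 CPM in normoxia. Ltf had 70.9, 97.3 and 151 CPM in wild type hypoxia libraries, against 7.06, 20.3 and 8.93 CPM in wild type normoxia libraries. Hypoxia and normoxia were separated in wild type, with a log2 change of 3.14 ± 0.89 (adjusted p = 0.055), and overlapped in both other lines. The average over lines was 1.35 ± 0.48 (adjusted p = 0.0617), and it passed the threshold in 6 of 25 alternatives, as the wild type change did in 5 of 14. Of the 9 measured genes that mark airway secretory epithelium, 5 were called higher in wild type hypoxia than in wild type normoxia, against 2.85% of all genes, among them Scgb3a1 (5.40 ± 1.02), Tff2 (5.03 ± 0.99), Reg3g (8.42 ± 1.81) and Bpifb1 (5.99 ± 1.36). The summed CPM of the 9 ran from 3790 to 5590 in hypoxia and 4750 to 7440 in normoxia in β-arrestin 1 -/-, from 6690 to 7050 in hypoxia and 5730 to 11800 in normoxia in libraries labelled β-arrestin 2 -/-, and from 5410 to 6840 in hypoxia and 4000 to 5960 in normoxia in wild type. In normoxia libraries labelled β-arrestin 2 -/- 7 of the 9 were called higher than in wild type normoxia, against 9.49% of all genes called in either direction, and 4 of the 9 had a lower hypoxia response under that label than in wild type, against 2.56%. Replicate 0 of those normoxia libraries held the highest Ltf, Pglyrp1, Hp and Prtn3 of all 18 libraries together with the highest airway sum and the highest sums of 8 cardiac muscle markers (6340 CPM) and 9 fat cell markers (279 CPM). The part of these cells in the values of Ltf and Pglyrp1 was not tested.

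Hp, which binds free hemoglobin, was not called higher in any line. Hp in the β-arrestin 1 -/- line had 1130, 1170 and 1810 CPM in hypoxia, against 1510, 1410 and 1270 CPM in normoxia. Hp in the libraries labelled β-arrestin 2 -/- had 995, 1360 and 1170 CPM in hypoxia, against 2130, 1570 and 1420 CPM in normoxia. Hp had 1360, 1220 and 1370 CPM in wild type hypoxia libraries, against 1470, 1420 and 1210 CPM in wild type normoxia libraries. Hypoxia libraries were below normoxia libraries without overlap in the libraries labelled β-arrestin 2 -/-, where the log2 change was -0.54 ± 0.18 (adjusted p = 0.0462), and the groups overlapped in the other lines. That call was lost in 10 of 14 alternatives, and without normoxia replicate 0 the change was -0.34 ± 0.18 (adjusted p = 0.224). The average over lines was -0.21 ± 0.11 (adjusted p = 0.186), and -0.29 ± 0.09 (adjusted p = 0.0228) without β-arrestin 1 -/- hypoxia replicate 2.

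**Figure D5:**
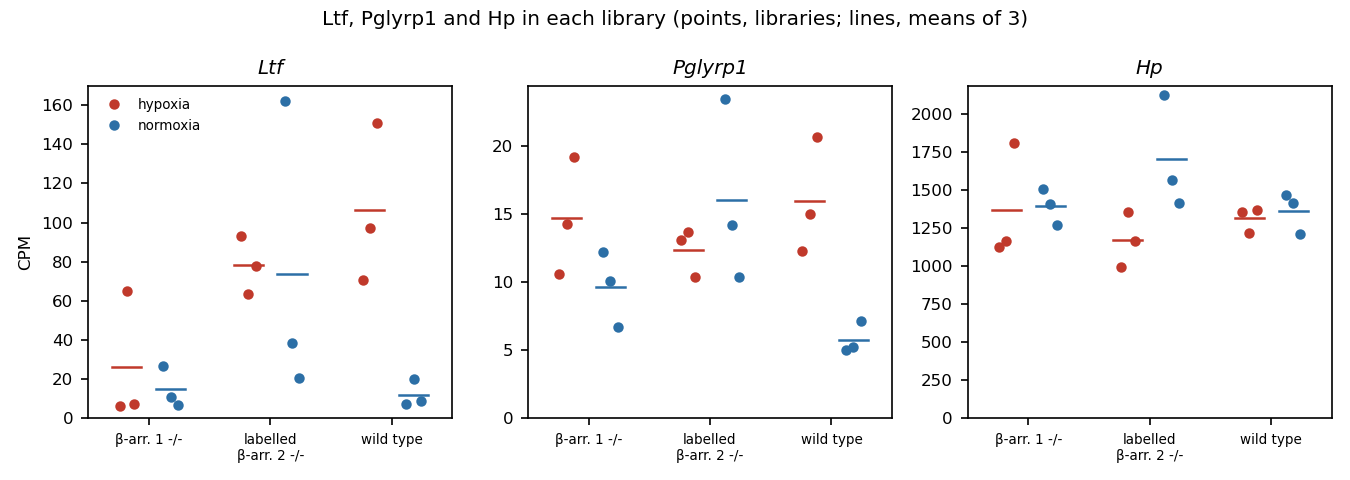
CPM of Ltf, Pglyrp1 and Hp in each library, in hypoxia and in normoxia of each line; points are libraries and lines are means of 3. All 3 genes have their highest value in normoxia replicate 0 of the libraries labelled β-arrestin 2 -/-, at 162 CPM for Ltf, 23.5 CPM for Pglyrp1 and 2130 CPM for Hp.

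Among receptors, Cxcr1 and Cxcr2 bind the ELR chemokines that draw neutrophils into tissue, and lie 30.5 kb apart on chromosome 1. Cxcr1 in the β-arrestin 1 -/- line had 1.56, 1.27 and 1.38 CPM in hypoxia, against 0.246, 0.645 and 0.134 CPM in normoxia. Cxcr1 in the libraries labelled β-arrestin 2 -/- had 0.780, 1.33 and 1.18 CPM in hypoxia, against 0.157, 0.174 and 0.161 CPM in normoxia. Cxcr1 had 3.56, 1.35 and 1.34 CPM in wild type hypoxia libraries, against 0.321, 0.0956 and 0.354 CPM in wild type normoxia libraries. Each hypoxia library exceeded each normoxia library over all 3 lines, and the average log2 change was 2.57 ± 0.31, a fold of 5.93 (adjusted p = 5e-05). The gene was called in each line, at 2.03 ± 0.52 in β-arrestin 1 -/-, 2.70 ± 0.58 in libraries labelled β-arrestin 2 -/- and 2.98 ± 0.52 in wild type. The β-arrestin 1 -/- call (adjusted p = 0.0438) was lost in 8 of 14 alternatives, at adjusted p of up to 0.199.

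Cxcr2 in the β-arrestin 1 -/- line had 8.65, 8.20 and 7.76 CPM in hypoxia, against 1.77, 4.93 and 1.39 CPM in normoxia. Cxcr2 in the libraries labelled β-arrestin 2 -/- had 3.08, 9.14 and 4.18 CPM in hypoxia, against 1.73, 1.83 and 2.58 CPM in normoxia. Cxcr2 had 5.04, 4.06 and 8.98 CPM in wild type hypoxia libraries, against 0.917, 0.813 and 6.36 CPM in wild type normoxia libraries. Hypoxia and normoxia did not overlap in the β-arrestin 1 -/- line or in the libraries labelled β-arrestin 2 -/-. In wild type, normoxia replicate 2 lay among the hypoxia libraries, as it did for the alarmins. The average log2 change was 1.39 ± 0.38, a fold of 2.62 (adjusted p = 0.0164), and no single line gave a call.

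Fpr1 and Fpr2 are receptors for formylated bacterial and mitochondrial peptides, 3.9 kb apart on chromosome 17. Fpr1 in the β-arrestin 1 -/- line had 6.59, 6.41 and 8.51 CPM in hypoxia, against 3.16, 4.15 and 3.85 CPM in normoxia. Fpr1 in the libraries labelled β-arrestin 2 -/- had 3.25, 4.24 and 4.66 CPM in hypoxia, against 1.47, 2.66 and 1.90 CPM in normoxia. Fpr1 had 6.52, 3.89 and 4.01 CPM in wild type hypoxia libraries, against 2.06, 1.58 and 5.83 CPM in wild type normoxia libraries. Hypoxia libraries were higher without overlap in both lines other than wild type, and the average log2 change was 0.85 ± 0.22, a fold of 1.80 (adjusted p = 0.0127).

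Fpr2 in the β-arrestin 1 -/- line had 4.44, 3.80 and 7.70 CPM in hypoxia, against 2.5, 3.36 and 2.47 CPM in normoxia. Fpr2 in the libraries labelled β-arrestin 2 -/- had 5.29, 7.22 and 8.28 CPM in hypoxia, against 3.51, 5.54 and 5.0 CPM in normoxia. Fpr2 had 3.43, 3.26 and 4.36 CPM in wild type hypoxia libraries, against 2.25, 1.43 and 4.60 CPM in wild type normoxia libraries. Only the β-arrestin 1 -/- line showed no overlap. On average the log2 change was 0.63 ± 0.20, a fold of 1.55 (adjusted p = 0.0392), and this call was lost in 12 of 25 alternatives, at adjusted p of up to 0.0888.

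Csf3r is the receptor for granulocyte colony-stimulating factor, which drives neutrophil production and survival. Csf3r in the β-arrestin 1 -/- line had 14.5, 18.7 and 22.9 CPM in hypoxia, against 5.09, 14.2 and 6.36 CPM in normoxia. Csf3r in the libraries labelled β-arrestin 2 -/- had 6.46, 14.0 and 8.28 CPM in hypoxia, against 8.86, 8.41 and 6.09 CPM in normoxia. Csf3r had 11.1, 9.19 and 21.2 CPM in wild type hypoxia libraries, against 5.64, 3.83 and 22.3 CPM in wild type normoxia libraries. Its groups overlapped in wild type and in the libraries labelled β-arrestin 2 -/-, and were separated in β-arrestin 1 -/- by a narrow margin. Its mean log2 change over the lines was 0.60 ± 0.31 (adjusted p = 0.195), and no line gave a call. The decoy receptor Il1r2 had an average log2 change of 1.11 ± 0.46 (adjusted p = 0.107), and the leukotriene B4 receptor Ltb4r1 one of -0.14 ± 0.16 (adjusted p = 0.595).

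Among surface proteins, Cd177 is carried on the plasma membrane of neutrophils and on their specific granules. Cd177 in the β-arrestin 1 -/- line had 4.49, 9.77 and 6.51 CPM in hypoxia, against 4.72, 4.70 and 3.27 CPM in normoxia. Cd177 in the libraries labelled β-arrestin 2 -/- had 6.98, 8.08 and 8.36 CPM in hypoxia, against 5.93, 5.23 and 3.15 CPM in normoxia. Cd177 had 8.13, 10.2 and 8.64 CPM in wild type hypoxia libraries, against 2.75, 3.35 and 3.36 CPM in wild type normoxia libraries. Hypoxia was above normoxia without overlap in wild type and in the libraries labelled β-arrestin 2 -/-. Hypoxia replicate 0 of β-arrestin 1 -/- lay within the normoxia range. Averaged over lines the log2 change was 0.98 ± 0.15, a fold of 1.97 (adjusted p = 0.000417), and in wild type alone it was 1.51 ± 0.27 (adjusted p = 0.00516).

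Trem1 amplifies inflammatory signalling in myeloid cells, and Trem3 is its neighbour on chromosome 17. Trem1 in the β-arrestin 1 -/- line had 4.12, 3.58 and 6.57 CPM in hypoxia, against 1.72, 1.70 and 1.17 CPM in normoxia. Trem1 in the libraries labelled β-arrestin 2 -/- had 1.34, 3.10 and 1.57 CPM in hypoxia, against 1.36, 1.26 and 1.45 CPM in normoxia. Trem1 had 3.52, 1.86 and 6.69 CPM in wild type hypoxia libraries, against 0.596, 0.813 and 2.87 CPM in wild type normoxia libraries. The β-arrestin 1 -/- line was the one without overlap. The average log2 change was 1.22 ± 0.31, a fold of 2.34 (adjusted p = 0.0106), while that of Trem3 was 0.53 ± 0.30 (adjusted p = 0.237).

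Clec4d and Clec4e are C-type lectins that sense fungal and mycobacterial glycolipids, 6.5 kb apart on chromosome 6. Clec4d in the β-arrestin 1 -/- line had 6.68, 4.89 and 10.6 CPM in hypoxia, against 1.44, 3.92 and 1.70 CPM in normoxia. Clec4d in the libraries labelled β-arrestin 2 -/- had 3.03, 4.35 and 3.35 CPM in hypoxia, against 2.15, 2.14 and 1.98 CPM in normoxia. Clec4d had 3.26, 1.69 and 9.21 CPM in wild type hypoxia libraries, against 2.52, 1.82 and 4.33 CPM in wild type normoxia libraries. In wild type the groups overlapped, with hypoxia replicate 1 below all 3 normoxia libraries, and in the other lines they did not. Clec4d changed on average by a log2 of 1.05 ± 0.30, a fold of 2.06 (adjusted p = 0.0226), and Clec4e by 0.64 ± 0.38 (adjusted p = 0.262). Sorl1, a sorting receptor, had an average of -0.02 ± 0.11 (adjusted p = 0.926).

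Genes made by mature cells included Retnlg, a resistin-like secreted protein of mouse neutrophils. Retnlg in the β-arrestin 1 -/- line had 20.1, 10.4 and 33.8 CPM in hypoxia, against 2.30, 3.78 and 1.70 CPM in normoxia. Retnlg in the libraries labelled β-arrestin 2 -/- had 5.85, 17.5 and 6.88 CPM in hypoxia, against 3.04, 3.44 and 2.62 CPM in normoxia. Retnlg had 9.30, 4.02 and 27.3 CPM in wild type hypoxia libraries, against 2.25, 1.63 and 7.34 CPM in wild type normoxia libraries. Wild type groups overlapped through normoxia replicate 2, and those of the other lines did not. On average the log2 change was 2.21 ± 0.40, a fold of 4.62 (adjusted p = 0.00127), and the β-arrestin 1 -/- change of 3.04 ± 0.71 (adjusted p = 0.0303) was 2.56 ± 0.73 (adjusted p = 0.0847) without hypoxia replicate 2.

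Stfa2l1 is a stefin, an inhibitor of cysteine proteases, with near-identical copies on chromosome 16 between which fragments may have been split, so its level is uncertain. Stfa2l1 in the β-arrestin 1 -/- line had 1.28, 0.698 and 3.13 CPM in hypoxia, against 0.0411, 0.230 and 0.0448 CPM in normoxia. Stfa2l1 in the libraries labelled β-arrestin 2 -/- had 0.130, 1.25 and 1.00 CPM in hypoxia, against 0.105, 0.131 and 0.363 CPM in normoxia. Stfa2l1 had 0.478, 0.593 and 1.30 CPM in wild type hypoxia libraries, against 0.138, 0.0956 and 0.354 CPM in wild type normoxia libraries. Hypoxia libraries were all above normoxia libraries in wild type and in β-arrestin 1 -/-, and hypoxia replicate 0 of the libraries labelled β-arrestin 2 -/- lay in the normoxia range. Its mean log2 change over the lines was 2.62 ± 0.49, a fold of 6.13 (adjusted p = 0.00168). In β-arrestin 1 -/- it was 3.94 ± 0.88 (adjusted p = 0.0249), and 3.2 ± 0.89 (adjusted p = 0.0788) without hypoxia replicate 2.

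G0s2 inhibits the triglyceride lipase of lipid droplets. G0s2 in the β-arrestin 1 -/- line had 112, 108 and 207 CPM in hypoxia, against 63.8, 63.2 and 63.8 CPM in normoxia. G0s2 in the libraries labelled β-arrestin 2 -/- had 118, 121 and 91.4 CPM in hypoxia, against 74.9, 55.1 and 59.8 CPM in normoxia. G0s2 had 104, 82.5 and 102 CPM in wild type hypoxia libraries, against 72.3, 60.3 and 50.1 CPM in wild type normoxia libraries. Each of the 9 hypoxia libraries lay above each of the 9 normoxia libraries. Averaged over lines the log2 change was 0.87 ± 0.12, a fold of 1.83 (adjusted p = 0.000181). The change in β-arrestin 1 -/- was 1.16 ± 0.21 (adjusted p = 0.00878), 0.79 ± 0.14 (adjusted p = 0.00905) without the 2 libraries of lowest total, and 1.15 ± 0.25 (adjusted p = 0.132) with only the groups compared. Under the β-arrestin 2 -/- label the G0s2 call was lost in 2 of 14 alternatives, at adjusted p of up to 0.0654. Of the regulators, Padi4, the enzyme that citrullinates histones in extracellular traps, had an average of -0.06 ± 0.28 (adjusted p = 0.902), with hypoxia below normoxia without overlap in the libraries labelled β-arrestin 2 -/- and above it without overlap in β-arrestin 1 -/-.

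Line by line, fewer genes passed the test than in the average. In β-arrestin 1 -/-, 7 genes were called higher (Cxcr1, G0s2, Ngp, Retnlg, S100a8, S100a9 and Stfa2l1) and 0 lower, against 1.84% and 1.11% of all genes. The median log2 change was 0.95, against 0.02 over all genes. In 17 genes all hypoxia libraries were above all normoxia libraries and in 0 below, against 11.4% and 9.85% of all genes. The count of calls was 10 in DESeq2, and 0 when only the 6 libraries of this line were fitted. It was 2 without hypoxia replicate 2, 1 without normoxia replicate 0, 3 without normoxia replicate 1 and 1 without normoxia replicate 2. Shares of all genes called in these fits are not given here. The calls of S100a8, S100a9, Retnlg and Stfa2l1 were each lost in 6 of 14 alternatives.

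In the libraries labelled β-arrestin 2 -/-, 3 genes were called higher (Cxcr1, G0s2 and Ngp) and Hp was called lower, against 11.1% and 10.8% of all genes, so the share of neutrophil genes called was near the background. The median log2 change was 0.64, against -0.04 over all genes, and 11 genes were higher and 3 (Padi4, Ltb4r1 and Hp) lower without overlap, against 22.6% and 25.3% of all genes. The count of calls was 8 in DESeq2, 10 when only the 6 libraries of this line were fitted, and 2 without normoxia replicate 1. Shares of all genes called in those fits are not given here.

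In wild type, 4 of the 26 genes were called higher in hypoxia (Cd177, Cxcr1, Ngp and Pglyrp1) and 0 lower, against 2.85% of all genes called higher and 1.92% lower. The log2 change was above 0 in 25 of the 26, with a median of 1.06 against 0.0 over all genes. Without wild type normoxia replicate 2, 10 genes were called. The share of all genes called in that fit is not given here, and the library was singled out by its values in these same genes. That library had a summed 109 CPM of 7 neutrophil markers, against 24.6 and 15.7 CPM in the other wild type normoxia libraries. The markers were S100a8, S100a9, Csf3r, Cxcr2, Retnlg, Mmp8 and Mmp9. All but Mmp8 and Mmp9 are genes of the list, so the sum largely restates values given above and is not a separate measure of neutrophils. In 8 genes the 3 hypoxia libraries were all above the 3 normoxia libraries and in 0 all below, against 13.3% and 11.5% of all genes.

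Across the lines, the log2 change was above 0 in all 3 for 19 of the 26 genes, against 17.8% of all genes tested, and below 0 in all 3 for Hp, against 17.4%. The same 7 markers, all but Mmp8 and Mmp9 from the list, summed to 163 to 375 CPM in β-arrestin 1 -/- hypoxia libraries. In β-arrestin 1 -/- normoxia libraries they summed to 29.0 to 70.5 CPM. In libraries labelled β-arrestin 2 -/- the sum was 62.8 to 170 CPM in hypoxia and 38.3 to 43.5 CPM in normoxia, and in wild type it was 69.2 to 272 CPM in hypoxia and 15.7 to 109 CPM in normoxia. The hypoxia and normoxia sums overlapped in wild type and not in the other lines.

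The authors' deposited table gave more calls line by line at a q-value below 0.05. In β-arrestin 1 -/- the authors' deposited table called 18 of 26 neutrophil genes higher in hypoxia, against 7.8% of genes called there in either direction. These calls are not given without hypoxia replicate 2 of that line. In the libraries labelled β-arrestin 2 -/- the authors' deposited table called 10 of 26 higher and 1 lower, against 18.2%. In wild type the authors' deposited table called 13 of 25 higher, against 8.98%.

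The hypoxia response was set against that of wild type in each other line, using the same wild type libraries for both. For β-arrestin 1 -/-, edgeR called 0 of the 26 genes and 0 of the 15388 genes tested (0.0%) as responding differently. DESeq2 called 0 of the 26. An unadjusted edgeR p below 0.05 was reached by 1 of the 26, against 5.84% of all genes. The difference of S100a8 responses was 1.18 ± 1.04 and that of Ngp -0.95 ± 1.16 on the log2 scale. For the libraries labelled β-arrestin 2 -/-, Pglyrp1 was the 1 gene called, with a lower response, against 6.05% of all genes called, 3.49% with a higher and 2.56% with a lower response. The difference for S100a8 was 0.03 ± 1.03, and that for Ltf was -3.05 ± 1.18 (adjusted p = 0.122).

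Levels were also compared with wild type within each exposure. Of the 26 genes, 0 were called in β-arrestin 1 -/- hypoxia libraries against wild type hypoxia by edgeR (0.201% of all genes) and 0 by DESeq2. At an unadjusted edgeR p below 0.05 were 2, G0s2 at 0.56 ± 0.21 and Ltf at -2.01 ± 0.84, against 11.3% of all genes. In β-arrestin 1 -/- normoxia libraries 0 were called against wild type normoxia by edgeR (0.221% of all genes) and 0 by DESeq2. Pglyrp1 at 0.74 ± 0.31 was the 1 gene at an unadjusted edgeR p below 0.05, against 8.71% of all genes. In hypoxia libraries labelled β-arrestin 2 -/-, edgeR called 0 against wild type hypoxia (0.923% of all genes) and DESeq2 called 0. An unadjusted edgeR p below 0.05 was reached by 3, against 11.7% of all genes. Those 3 were Camp at 1.39 ± 0.62, Fpr2 at 0.91 ± 0.35 and Lcn2 at -0.61 ± 0.22. In the normoxia libraries of that label Pglyrp1 was the 1 gene called by edgeR, higher than in wild type, against 9.49% of all genes called, and DESeq2 called 2, Ltf being the other. The authors' deposited table called 5 of 26 between the hypoxia groups of β-arrestin 1 -/- and wild type (S100a8, S100a9, Retnlg and G0s2 higher, Ltf lower), against 4.51% of genes there. Those called higher had their highest CPM in β-arrestin 1 -/- hypoxia replicate 2, and the deposited calls are not given without that library. In edgeR the adjusted p of S100a8, S100a9, Retnlg and G0s2 in that comparison was 0.641, 0.649, 0.699 and 0.396. Between the normoxia groups that table called 1 of 23 (Pglyrp1 higher), against 4.33%. Under the β-arrestin 2 -/- label, the authors' deposited table called 4 of 26 against wild type in hypoxia (Fpr2 higher; Lcn2, S100a9 and Trem1 lower), against 5.28% of genes, and 2 of 23 in normoxia (Ltf and Pglyrp1 higher), against 14.6%.

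Genes of neutrophil function outside the list were also counted. Of 44 tested genes of oxidative burst, signalling and lipid mediator synthesis, 11 were called higher and 4 lower in hypoxia on average, with a median log2 change of 0.13. Over all genes tested the shares were 10.4% higher and 8.94% lower, so the count of lower genes was near the background. Those of smallest p were Ccrl2, an atypical chemerin receptor, at 0.55 ± 0.06, the glycogen phosphorylase gene Pygl at 0.35 ± 0.06, the metalloreductase gene Steap4 at -0.63 ± 0.11 and the 5-lipoxygenase gene Alox5 at 0.68 ± 0.12. Mmp8, the neutrophil collagenase, rose by 1.5 ± 0.36. In β-arrestin 1 -/- 3 were called higher and 0 lower, against 1.84% and 1.11% of all genes. Under the β-arrestin 2 -/- label 4 were called higher and 7 lower, against 11.1% and 10.8%, and in wild type 4 higher and 0 lower, against 2.85% and 1.92%.

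Of 35 tested genes of neutrophil recruitment, 9 were called higher and 5 lower in hypoxia on average, against 10.4% and 8.94% of all genes, with a median log2 change of 0.21. The endothelial adhesion molecule Vcam1 fell on average (-1.10 ± 0.08, adjusted p = 2.3e-07) and in each line. The average of the adhesion molecule Sele (-1.13 ± 0.23, adjusted p = 0.00282) rested on β-arrestin 1 -/-, where its log2 change was -2.98 ± 0.39, against -0.52 ± 0.41 under the β-arrestin 2 -/- label and 0.10 ± 0.39 in wild type, neither of them called. Sele in β-arrestin 1 -/- normoxia libraries was above wild type normoxia by 2.35 ± 0.37 (adjusted p = 0.00857). On average the chemokine gene Cxcl12 (1.11 ± 0.17) and the leukotriene A4 hydrolase gene Lta4h (0.21 ± 0.04) rose. In wild type 6 were called higher and 2 lower, against 2.85% and 1.92% of all genes, with Cxcl2, a ligand of Cxcr2, at 5.28 ± 1.18 (adjusted p = 0.0191) and the integrin gene Itgb2 at 0.94 ± 0.20 (adjusted p = 0.0157). The β-arrestin 1 -/- line had 1 higher and 2 lower, against 1.84% and 1.11%. The libraries labelled β-arrestin 2 -/- had 1 higher and 3 lower, shares below the 11.1% and 10.8% of all genes. The cytokine gene Il17a was at 0 in every library of 5 of the 6 groups, and Csf3, which encodes the ligand of Csf3r, was at 0 in β-arrestin 1 -/- hypoxia libraries.

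Markers of other blood and immune cells moved as well. On average over lines 5 of 7 tested B cell markers (among them Faim3, 1.37 ± 0.31, and Cd79a, 1.14 ± 0.30), 5 of 10 T and NK cell markers (among them Cd8b1, 1.29 ± 0.22) and 3 of 8 alveolar macrophage markers were called higher in hypoxia and 0 of each lower, against 10.4% and 8.94% of all genes. By line, 4 of the 7 B cell and 3 of the 10 T and NK cell markers were called higher in wild type, and 0 of either in the other lines. The median log2 change of the B cell markers was 1.09 in β-arrestin 1 -/-, 0.05 under the β-arrestin 2 -/- label and 1.89 in wild type. Of monocyte markers 1 of 8 was called higher on average (Ace) and 1 lower (Treml4). Under the β-arrestin 2 -/- label Ace was called higher (1.19 ± 0.20) while 3 of the 8 were called lower (Treml4, Cx3cr1 and Ly6c2), against 11.1% and 10.8% of all genes. Red cell markers gave 0 of 6 higher and 1 lower on average. Platelet markers gave 0 of 8 either way on average, against 4 of 8 lower in wild type hypoxia. B cell markers summed to 53.1 to 207 CPM in wild type hypoxia and 14.9 to 53.1 CPM in wild type normoxia, with normoxia replicate 2 the highest of its group for B cells, for T and NK cells (34.1 CPM) and for neutrophils. Whether these cells and the neutrophil genes share a source was not tested.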

How the data were processed

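The lungs gave 18 poly(A)-selected libraries made with the NEBNext Ultra RNA kit, per the labels' protocols. That kit is unstranded, so antisense overlap is not resolved. FastQC, TopHat and Cuffdiff are the tools, and mm10 the build, that stand in the submitters' processing notes. As to annotation and tool versions: not given in the sources used here. Deposited first was a measure that the authors did not normalize, the estimated count of each gene in each library, whole in 93.3% of values. The authors also deposited FPKM, scaled across libraries. A deposited table of Cuffdiff comparisons supplied a p-value, a q-value and the sign of a test score.

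Of 23356 features, 5 with the Cuffdiff status HIDATA were left out and 20 with FAIL in some library were kept. Rounded estimated counts of the 15388 genes that filterByExpr kept entered 1 quasi-likelihood fit of all libraries in edgeR 4.0.16 (R 4.3.3, TMM), with Benjamini-Hochberg adjustment over all genes and a threshold of 0.05. This test gave every adjusted p not credited elsewhere. Errors of log2 changes are SE, and CPM are counts scaled to a library's total over the tested genes, multiplied by its TMM factor. Contrasts were hypoxia against normoxia in each line and on average, each other line against wild type in each exposure, and differences of responses. Counting intervals are exact 95% intervals and cover counting error only. Alternatives were DESeq2 1.42.0, edgeR with the DESeq2 size factors or with all genes unfiltered, limma 3.58.1 with a pseudocount of 1 or 0.1 on the log2 scale of FPKM for genes with an FPKM of at least 1 in at least 3 libraries, a fit restricted to the compared groups, a block on replicate number, and each library left out in turn; a fit without the 2 libraries of lowest total was chosen after seeing the data. The scripts were tested on simulated data.

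The members, the other lists and the rules were chosen with earlier results of these data known. By the rule for named genes, every member found is given with its level, and every member called in at least 1 contrast, with S100a8, S100a9, Csf3r, Cxcr2, Mpo and Camp, is given in every library; other tested members by their changes. Of other lists a gene is named if called, at most 4 per list and contrast by smallest p, or as a defining marker. Cited per-library values of Ltf, the Trem3, Clec4e and Sorl1 changes and genes listed at 0 were added after values were seen. Promoter sequences are from RefSeq on GRCm38.p6. Figures were drawn with matplotlib 3.10.9.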

Additional observations from a re-analysis of the deposited data

Results flagged for a closer look

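The hypoxia response of Pglyrp1 differed between lines. Relative to the wild type response, that of the libraries labelled β-arrestin 2 -/- was lower by a log2 of -1.83 ± 0.43 (adjusted p = 0.0253, edgeR's quasi-likelihood test of the difference). Hypoxia libraries were higher than normoxia libraries in 3 of 3 cases in wild type, and the groups overlapped under the β-arrestin 2 -/- label. The call was lost in 6 of 20 alternatives, each of which left out 1 library, at adjusted p of up to 0.0735. The measure of short genes against long genes was higher in all 3 normoxia libraries of that label (0.25 to 0.62) than in the 3 wild type normoxia libraries (-0.28 to -0.15), and its part in the Pglyrp1 result was not tested.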

How the results depend on the processing

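The count of neutrophil genes called higher in hypoxia on average was 16 and ran from 14 to 17 over all alternatives, and it was within 1.5 times of the reported count in each. The counts within single lines depended on the libraries. Shares of all genes called under the alternatives are not given here, so these counts are not set against a background. In β-arrestin 1 -/- the count of 7 was 10 in DESeq2 and 0 with only the groups compared. It ran from 1 to 6 with 1 library left out. Without the 2 libraries of lowest total, an alternative chosen after seeing the data, it was 2. In the libraries labelled β-arrestin 2 -/- the count of 4 was 8 in DESeq2 and 10 with only the groups compared, and ran from 2 to 5 with 1 library left out. In wild type the count of 4 was 6 in DESeq2 and ran from 3 to 10 with 1 library left out. Between normoxia libraries labelled β-arrestin 2 -/- and wild type, the count of 1 was 2 in DESeq2 and ran from 0 to 2 with 1 library left out. For the difference between the responses of these lines it ran from 0 to 1. The cause was not tested. Changes that turned round were all uncalled and did so with 1 library left out, and in the case of Pglyrp1 and Sorl1 also with 2 left out: Csf3r from -0.07 to 1.54 in wild type (-0.02 without normoxia replicate 1, -0.07 without hypoxia replicate 2) and from -0.07 to 0.52 under the β-arrestin 2 -/- label. Ltf ran from -1.15, without hypoxia replicate 1, to 1.57 in β-arrestin 1 -/-, and under the β-arrestin 2 -/- label from -0.34 to 1.41, with -0.22 and -0.06 between. Pglyrp1 under that label ran from -0.59 to 0.02, and was 0.03 without the 2 libraries of lowest total. The averages of Padi4 (-0.24 to 0.12) and Sorl1 (-0.08 to 0.07, and 0.03 without the 2 libraries of lowest total) lay on both sides of 0. Alternatives were computed for 65 results of single genes: the average change of all 26 genes, every call, and further changes of 10 genes. Of their 1200 values, 1069 kept direction and side of the threshold, 81 lost a call, 31 gained one and 19 turned round. Replicate numbers are shared between groups, but they did not pair the libraries: 7 of 21 correlations of same-numbered libraries were above 0.1, from -0.212 to 0.464, and 0 to 4 of 6 libraries per contrast correlated best with their own number. With the replicate number as a block the counts were 7 in β-arrestin 1 -/-, 5 under the β-arrestin 2 -/- label, 4 in wild type and 16 on average. Depth limited the lowest genes, of which 9 of 35 could not be tested.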

Other observations

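Neutrophil genes did not all follow the same libraries. β-Arrestin 1 -/- hypoxia replicate 2 held the highest CPM of 9 of the 26 tested genes, among them S100a8, S100a9, Csf3r, Retnlg and G0s2. Wild type hypoxia replicate 2 was highest for 4, Trem1, Trem3, Clec4e and Il1r2, and normoxia replicate 0 of the libraries labelled β-arrestin 2 -/- for 4, Ltf, Prtn3, Pglyrp1 and Hp. The granule genes Ngp and Camp were highest in hypoxia replicate 0 of that label. In that library the summed CPM of the 7 neutrophil markers, all but Mmp8 and Mmp9 from the list, was 62.8, the lowest of the 9 hypoxia libraries.

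Over the 16 genes called higher on average, the median log2 level relative to each gene's mean over libraries ran from -0.01 to 1.04 in the 9 hypoxia libraries and from -1.0 to 0.22 in the 9 normoxia libraries. Wild type normoxia replicate 2, at 0.22, was the only normoxia library above 0. The genes were chosen by the same values, so these medians are a description.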
